A study of Paeonia suffruticosa with 12 samples.

Results

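The seedlings grown with activated carbon were compared with all seedlings grown without it, in RNA-seq libraries of tree peony (Paeonia suffruticosa, variety "FengDan") embryos cultured in vitro. Members were chosen by the treatment label: the 6 libraries whose label names AC (3 labelled AC and 3 labelled AC and PVP) against the 6 whose label does not (3 labelled CK and 3 labelled PVP), so that all 12 of the 12 libraries entered. AC is activated carbon and PVP is polyvinylpyrrolidone, both added to the medium against browning. The question was which transcripts differ with AC whether or not PVP is present, and the presence of PVP was therefore a term in the fit.

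All 12 libraries came from embryo seedlings on MS medium with the auxin IAA, which the labels give as mixed roots, stems and leaves 30 days after rooting, and each library pooled 10 embryos. CK had neither agent, AC had 0.9 g/L activated carbon, PVP had 2 g/L PVP, and AC and PVP had 0.9 g/L activated carbon with 2.5 g/L PVP. The dose of PVP thus differed between the PVP group and the AC and PVP group, and this difference cannot be told apart from that of adding AC in the presence of PVP. The authors selected these media for germination and for clear differences in rooting, and the study describes the seedlings on CK and PVP media as not rooted and those on both AC media as rooted. Rooting was thus split along the same line as AC, and the difference between rooted and unrooted seedlings cannot be told apart from that of AC in any result below. The labels nevertheless give roots, stems and leaves for every library, and the share of each organ in a pool is not known. In such bulk samples, fewer cells of a type and less RNA of a gene per cell cannot be told apart.

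Activated carbon binds phenolic compounds, growth regulators and other small molecules in a medium, and it darkens the medium around the roots. Browning of cut plant tissue follows when polyphenol oxidases and peroxidases oxidise phenolics that the phenylpropanoid pathway makes. The same pathway feeds lignin and the ferulate of suberin, the lipid and phenolic polymer that seals the root endodermis, the periderm and wounds, while cutin and wax seal the shoot surface.

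The libraries held 11071628 to 25069014 estimated counts, with AC and PVP 3 the lowest. Reads had been counted on 130956 assembled unigenes, and the 58247 with a count above 0 in at least 3 libraries were tested. The number of unigenes above 1 CPM was 12819 to 15020 with AC and 12562 to 16285 without, a difference in means of -334 (two-sided exact permutation test within PVP level, p = 0.605, smallest possible p 0.005). Of the labelled organs, green tissue had its markers in all 12 libraries, with 849.8 to 6688 CPM summed over light harvesting and carbon fixation. For root, the 6 regulators listed as markers summed to 23.8 to 52.4 CPM without AC and 14.1 to 20.1 CPM with AC. The study describes the seedlings without AC as unrooted, so these regulators did not follow the described rooting. The 3 Casparian strip membrane-like proteins, also listed as root markers, had 7.44 to 41.7 CPM (median 17.5) without AC. With AC these proteins had 9.46 to 31.1 CPM (median 18.2). Neither list goes against the labels, which give roots for every library, and neither can show root tissue or its share. CK 2 stood apart from the other libraries without AC by high transcripts of seed reserves, given below. Levels are CPM, counts scaled to a common library size by the trimmed mean of M values. Differentially expressed genes (DEGs) were unigenes whose log2 fold change was over 1 in size with an adjusted p below 0.05, by edgeR's quasi-likelihood test with Benjamini-Hochberg adjustment over all 58247 unigenes. Fold changes are with AC against without AC throughout. The errors given after ±, in most places marked SE, were not estimated by the fit itself. Each was worked back from the quasi-likelihood test, as the size of the log2 fold change over the root of its F statistic. They are thus approximate, and call for most caution in unigenes barely detected with or without AC, such as NLTPC.

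With AC, 398 unigenes were DEGs, 0.683% of those tested, of which 150 (0.258%) were higher and 248 (0.426%) lower with AC. The median log2 fold change of all tested unigenes was -0.08. In 192 of the 398, the 6 libraries with AC did not overlap with the 6 without: 74 DEGs lay wholly above and 118 wholly below, where 0.282% and 0.543% of all tested unigenes did so, and 0.773% and 1.21% of the 15145 with a mean log2 CPM over 0. The log2 fold change passed 3 in size for 63 of the higher and 51 of the lower DEGs. Separately, AC vs CK gave 188 DEGs (0.323%) and AC and PVP vs PVP, which share no library with them, gave 41 (0.0704%). These counts cannot be ranked: AC vs CK gave 422 without CK 2, 64 without AC 2, 10 without CK 1, 8 without AC 3 and 0 without CK 3 (4447 at an unadjusted p under 0.05 by edgeR), and AC and PVP vs PVP gave from 5 without AC and PVP 3 to 184 without AC and PVP 2. Without CK 2, which is in neither of its groups, AC and PVP vs PVP gave 116. Of the 398, 114 were also DEGs in AC vs CK, 39 in that with PVP and 265 in neither.

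Higher DEGs (150) changed by a median of 2.84 on the log2 scale in AC vs CK against 2.37 in AC and PVP vs PVP, while for the 248 lower DEGs the medians were -2.22 and -1.89, respectively. All 398 had the sign of the joint fit in AC vs CK and all but 1 higher DEG in AC and PVP vs PVP, which the choice by the joint fit largely fixes. Across those 15145 unigenes, chosen without regard to the effect, the log2 fold changes of both comparisons had a Pearson correlation of 0.29, and across all tested unigenes it was 0.06. These correlations run over genes, which are not independent replicates. Libraries are named by group and replicate, so that without AC 2 means with that library left out. The count of DEGs rested on single libraries: it was 215 without CK 1, 673 without CK 2, 220 without CK 3, 254 without PVP 2, 213 without PVP 3, 259 without AC 1, 187 without AC 2, 260 without AC 3 and 181 without AC and PVP 3, and 126 of the 398 were DEGs whichever library was left out.

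**Figure D1:**
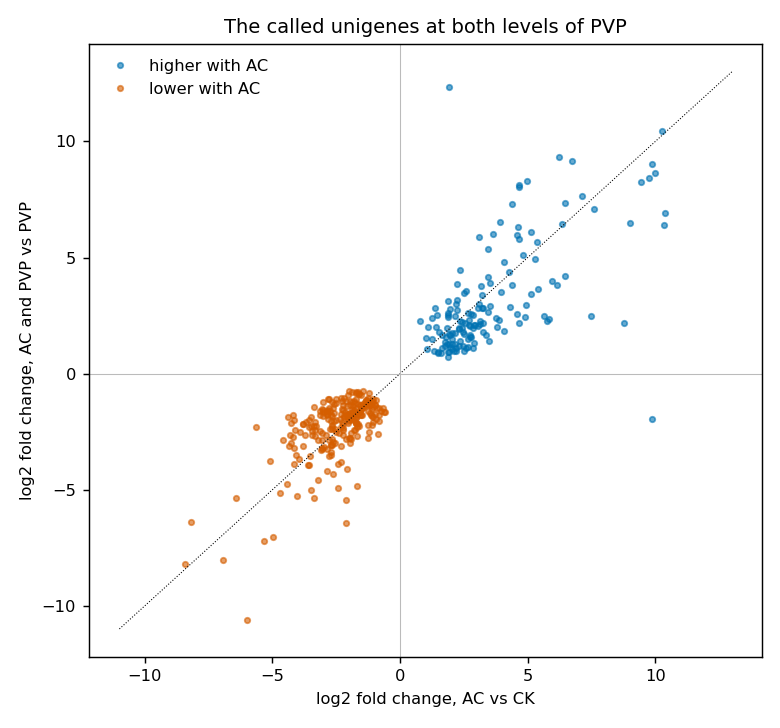
The 398 DEGs of the AC effect, each a point, with the log2 fold change of AC vs CK on the x axis and of AC and PVP vs PVP on the y axis. Higher DEGs (150) lie in the upper right apart from 1 point and the 248 lower DEGs in the lower left, as the selection by the joint fit favours, and the dotted line marks equal change.

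Names were available for 769 unigenes, and 204 of them were DEGs of the AC effect (26.5%: 91 higher, 11.8%, and 113 lower, 14.7%). These names come from the study's tables of DEGs between pairs of the same libraries, so this share and the counts of the gene lists below are not independent evidence of an effect. Each list is read against the 26.5%. Lower DEGs numbered 12 among the 18 suberin, cutin and wax enzymes and 10 among the 46 other transcription factors. There were 6 each among the 11 class III peroxidases and the 11 GPI-anchored lipid transfer proteins. Higher DEGs numbered 9 among the 33 non-specific lipid transfer proteins, 7 among the 46 other transcription factors and 5 among the 8 small heat shock proteins.

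**Figure D2:**
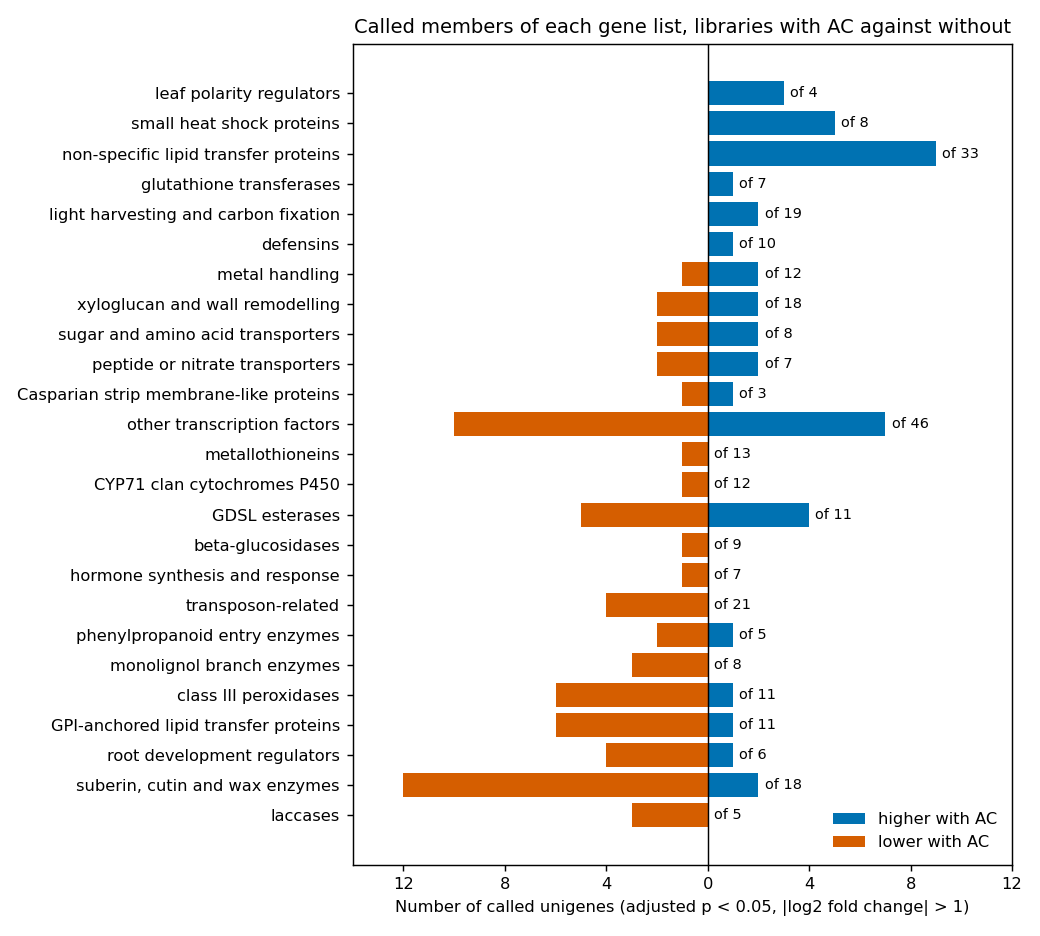
Number of DEGs in each gene list of 3 or more members with at least 1 DEG, higher with AC to the right and lower with AC to the left of 0, with the number of members tested beside each bar. Of the suberin, cutin and wax enzymes, 12 of 18 were lower and 2 higher, and of the non-specific lipid transfer proteins 9 of 33 were higher, 4 of them the NLTPC unigenes, and 0 lower.

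Most named enzymes of the suberin, cutin and wax list were lower with AC. Of 18 named enzymes of suberin, cutin and wax, 12 fell and 2 rose, against 14.7% lower and 11.8% higher among all named unigenes, with a median log2 fold change of -1.83 over the list. Summed over the list, the level was 151 to 569 CPM (median 337) without AC and 71.6 to 132 CPM (median 100.1) with AC, and the 6 libraries of each side did not overlap. C86A1 (TRINITY_DN15387_c0_g1), the cytochrome P450 that hydroxylates fatty acids for root suberin in Arabidopsis, had 2.38 to 10.6 CPM (median 5.25) without AC and 0.26 to 1.54 CPM (median 0.56) with AC. Every library with AC was below every library without it, and the change on the log2 scale was -3.04 ± 0.32 (SE, adjusted p = 0.00047). C86B1 (TRINITY_DN22332_c0_g1), the related enzyme for very long chains, had 1.48 to 12.7 CPM (median 5.06) without AC and 0.361 to 1.61 CPM (median 0.856) with AC, a change of -2.77 ± 0.37 (SE, adjusted p = 0.0019), and the sets overlapped only through CK 2 and AC and PVP 2.

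Ferulate is joined to the suberin chains by omega-hydroxypalmitate feruloyl transferase, named HHT1. The more abundant of its 2 unigenes, TRINITY_DN676_c0_g1, had 104 to 416 CPM (median 220.0) without AC and 22.9 to 59.1 CPM (median 40.6) with AC, without overlap, a change of -2.49 ± 0.30 (SE, adjusted p = 0.00095). The other, TRINITY_DN676_c0_g2 of the same assembly cluster, changed by -2.94 ± 0.49 and also without overlap, but reads could be split between such near copies. FACR3 (TRINITY_DN1082_c0_g3), a fatty acyl-CoA reductase of the suberin, cutin and wax list, had 6.33 to 14.6 CPM (median 11.5) without AC and 1.96 to 4.63 CPM (median 2.6) with AC, a change of -1.89 ± 0.23 (SE, adjusted p = 0.0011). The acyl thioesterase FATB (TRINITY_DN10366_c0_g1), which releases saturated fatty acids from the plastid pathway, had 1.97 to 5.88 CPM (median 3.94) without AC and 0.208 to 1.14 CPM (median 0.511) with AC and no overlap, a change of -2.80 ± 0.33 (SE, adjusted p = 0.00085). Among the libraries without AC, CK 2 was the lowest for all of these enzymes and PVP 3 the highest for all but FACR3, for which it was PVP 1. Leaving out CK 2, the library highest in seed reserves, 12 members were again lower, and the count of lower members fell to 8 without AC 2, while that of higher members was 5 without PVP 1.

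Some further members of the list rested on fewer fits. GPAT5 (TRINITY_DN4447_c0_g2), the acyltransferase of suberin in Arabidopsis, changed by -1.92 ± 0.38 (SE, adjusted p = 0.026), with 1.57 to 8.5 CPM (median 4.22) without AC and 0.364 to 2.16 CPM (median 1.14) with AC. It was a DEG in 6 of the 12 fits that left out 1 library, with an adjusted p of 0.083 without PVP 3. KCS1 (TRINITY_DN10080_c0_g1), which elongates fatty acids, changed by -1.95 ± 0.35 (SE, adjusted p = 0.018) and was a DEG in 9 of the 12 such fits, with an adjusted p of 0.064 without AC and PVP 3. GPAT6 (TRINITY_DN9447_c0_g1), known for cutin in Arabidopsis, changed by -1.77 ± 0.32 (SE, adjusted p = 0.018) and was a DEG in 10 of the 12 such fits, with an adjusted p of 0.051 without AC and PVP 3.

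The 2 members that rose are both known for cutin, as is GPAT6, which fell. DCR (TRINITY_DN5597_c0_g1), an acyltransferase needed for the cutin of Arabidopsis, had 1.84 to 12 CPM (median 5) without AC and 14.5 to 22.5 CPM (median 15.3) with AC and no overlap, a change of 1.56 ± 0.29 (SE, adjusted p = 0.019), although without AC and PVP 3 its adjusted p was 0.06. HTH, the HOTHEAD oxidoreductase (TRINITY_DN9353_c0_g1), had 0.224 to 2.5 CPM (median 1.15) without AC and 2.34 to 6.22 CPM (median 4.68) with AC, a change of 1.94 ± 0.33 (SE, adjusted p = 0.013) that held in 12 of the 12 fits. C86B1, GPAT5, KCS1, GPAT6, DCR and HTH were named after their values were seen.

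Surface proteins that bind lipids were mostly lower when GPI-anchored. Of 11 GPI-anchored lipid transfer proteins, 6 fell and 1 rose, with a median log2 fold change of -2.75. LTG16 (TRINITY_DN5866_c0_g1) had 7.08 to 86.7 CPM (median 17) without AC and 1.06 to 4.24 CPM (median 2.34) with AC, and LTG20 (TRINITY_DN1741_c0_g1) had 1.88 to 14.5 CPM (median 6.55) without AC and 0.0602 to 1.26 CPM (median 0.583) with AC. Neither overlapped, with changes of -3.12 ± 0.36 (SE, adjusted p = 0.00079) and -3.64 ± 0.43 (SE, adjusted p = 0.00091). LTG15 (TRINITY_DN10081_c0_g1) had 14 to 384 CPM (median 80.7) without AC and 4.48 to 32.5 CPM (median 11) with AC, a change of -2.73 ± 0.37 (SE, adjusted p = 0.002), and the PVP libraries, at 116 to 384 CPM, were above all others. Of the 2 LTPG5 unigenes that fell, TRINITY_DN26209_c0_g1 changed by -2.75 ± 0.35 and TRINITY_DN3269_c0_g1 by -3.32 ± 0.62, the latter with an adjusted p of 0.055 without AC 2. The 1 that rose, LTG14 (TRINITY_DN89941_c0_g1, named after its values were seen), was at 0 in all CK libraries and at 0.244 to 93.7 CPM (median 12.3) with AC, and its level without AC came mainly from PVP 3 with 1.63 CPM.

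GDSL esterases, a family with members that build or cut cutin and suberin, were split, with 4 of 11 higher and 5 lower. GDL38 (TRINITY_DN3379_c0_g1) had 3.59 to 54.3 CPM (median 13.2) without AC and 0.843 to 3.7 CPM (median 1.81) with AC, a change of -3.14 ± 0.36 (SE, adjusted p = 0.00079). Lower without overlap were GDL31 (TRINITY_DN775_c0_g1, -2.83 ± 0.33) and GDL80 (TRINITY_DN3267_c0_g1, -3.16 ± 0.43). On the other side, GDL34 (TRINITY_DN8165_c0_g1) had 3.19 to 6.99 CPM (median 4.03) without AC and 9.86 to 30.6 CPM (median 23.6) with AC, without overlap, a change of 2.20 ± 0.27 (SE, adjusted p = 0.0011). GDL29 (TRINITY_DN39582_c0_g1) rose, with 0 to 0.404 CPM (median 0.0977) without AC and 1.14 to 7.21 CPM (median 2.04) with AC, a change of 4.34 ± 0.62 (SE, adjusted p = 0.002). Among 3 Casparian strip membrane-like proteins, a family whose founders lay out the endodermal barrier, CSPL5 (TRINITY_DN2359_c0_g1) fell by 3.05 ± 0.37 (adjusted p = 0.001), with 2.92 to 37.9 CPM (median 10.9) without AC and 0.521 to 3.34 CPM (median 1.34) with AC, and CSPLA (TRINITY_DN113520_c0_g1) rose by 3.70 ± 0.59 (SE, adjusted p = 0.0072), with 0.0893 to 1.75 CPM (median 0.498) without AC and 1.95 to 11.9 CPM (median 8.21) with AC.

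Lignin genes that passed the test were mostly lower with AC. Of 5 phenylpropanoid entry enzymes, 2 fell and 1 rose, of 8 monolignol branch enzymes 3 fell, of 5 laccases 3 fell, and of 11 class III peroxidases 6 fell and 1 rose. When 1 library was left out, lower members ranged from 1 (without AC 1, AC 2 or PVP 3) to 4 for the monolignol branch and from 2 (without AC 2) to 6 for the peroxidases. The entry enzyme phenylalanine ammonia-lyase (PALY) had 2 unigenes among the DEGs. Of these, TRINITY_DN2415_c0_g1 had 53.4 to 229 CPM (median 128) without AC and 34.8 to 86.5 CPM (median 57.8) with AC, a change of -1.13 ± 0.22 (SE, adjusted p = 0.024), and TRINITY_DN1178_c0_g1 changed by -1.04 ± 0.23 (SE, adjusted p = 0.045). They were DEGs in 6 of the 12 and 3 of the 12 fits that left out 1 library, with adjusted p of 0.087 and 0.14 without AC and PVP 3. The 1 that rose was 4CLL7 (TRINITY_DN462_c0_g2), a 4-coumarate-CoA ligase-like protein, with 3.81 to 5.79 CPM (median 4.23) without AC and 7.82 to 39.9 CPM (median 13.7) with AC and no overlap. Its change was 1.81 ± 0.35 (SE, adjusted p = 0.026), and 0.083 was its adjusted p without PVP 3.

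Cinnamoyl-CoA reductase (CCR1, TRINITY_DN9614_c0_g1), the first enzyme dedicated to monolignols, had 60.4 to 194 CPM (median 129) without AC and 32.1 to 66.3 CPM (median 42.5) with AC, a change of -1.46 ± 0.23 (SE, adjusted p = 0.0073) that held in 12 of the 12 fits. CK 2 and AC and PVP 2 were the libraries through which both sides overlapped. Caffeoyl shikimate esterase (CSE, TRINITY_DN17083_c0_g1) had 4.62 to 21.9 CPM (median 7.26) without AC and 2.08 to 3.75 CPM (median 3.06) with AC, no overlap and a change of -1.55 ± 0.29 (SE, adjusted p = 0.019). The shikimate hydroxycinnamoyl transferase HST (TRINITY_DN4411_c0_g1) changed by -1.33 ± 0.26 (SE, adjusted p = 0.028). CSE and HST were DEGs in 8 of the 12 and 5 of the 12 fits, with adjusted p up to 0.063 without AC 2 and an adjusted p of 0.096 without AC and PVP 3.

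Laccases and class III peroxidases couple monolignols in the wall. LAC3 (TRINITY_DN4988_c0_g1) had 2.38 to 116 CPM (median 50.1) without AC and 0.417 to 6.78 CPM (median 3.58) with AC, a change of -3.76 ± 0.58 (SE, adjusted p = 0.0063), with CK 2 (2.38 CPM) alone among the libraries without AC at the level of those with AC. LAC5 (TRINITY_DN8297_c0_g1) had 2.38 to 16.8 CPM (median 5.78) without AC and 0.602 to 2.01 CPM (median 1.24) with AC, without overlap, and changed by -2.38 ± 0.38 (SE, adjusted p = 0.0074). LAC1 (TRINITY_DN10795_c0_g1) changed by -2.48 ± 0.48 (SE, adjusted p = 0.021), with an adjusted p of 0.082 without AC and PVP 3. Laccases are thus represented by 2 DEGs that held in every fit that left out 1 library. Among the peroxidases, PER11 (TRINITY_DN112784_c0_g1) had 2.6 to 73.1 CPM (median 16.2) without AC and 0.815 to 5.24 CPM (median 1.8) with AC, a change of -3.21 ± 0.42 (SE, adjusted p = 0.0019). PER64 (TRINITY_DN9029_c0_g1), whose Arabidopsis counterpart acts at the Casparian strip, had 18.3 to 181 CPM (median 60) without AC and 8.25 to 36 CPM (median 12.9) with AC, a change of -2.10 ± 0.33 (SE, adjusted p = 0.0072), and 18.3 CPM in CK 2 and 36 CPM in AC and PVP 2. PER20 (TRINITY_DN12785_c0_g1), PER12 (TRINITY_DN649_c0_g1) and PER55 (TRINITY_DN2605_c1_g1, named after its values were seen) changed by -2.15 ± 0.39, -1.61 ± 0.30 and -1.41 ± 0.28, with adjusted p up to 0.07 without PVP 3 for PER20 and an adjusted p of 0.072 and 0.089 without AC and PVP 3 for the other two. A second unigene named PER64, TRINITY_DN105044_c0_g1 (named after its values were seen), rose, with 0.319 to 1.65 CPM (median 0.808) without AC and 1.07 to 8.96 CPM (median 3.79) with AC, a change of 2.19 ± 0.42 (SE, adjusted p = 0.022), with an adjusted p of 0.061 without AC and PVP 1.

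**Figure D3:**
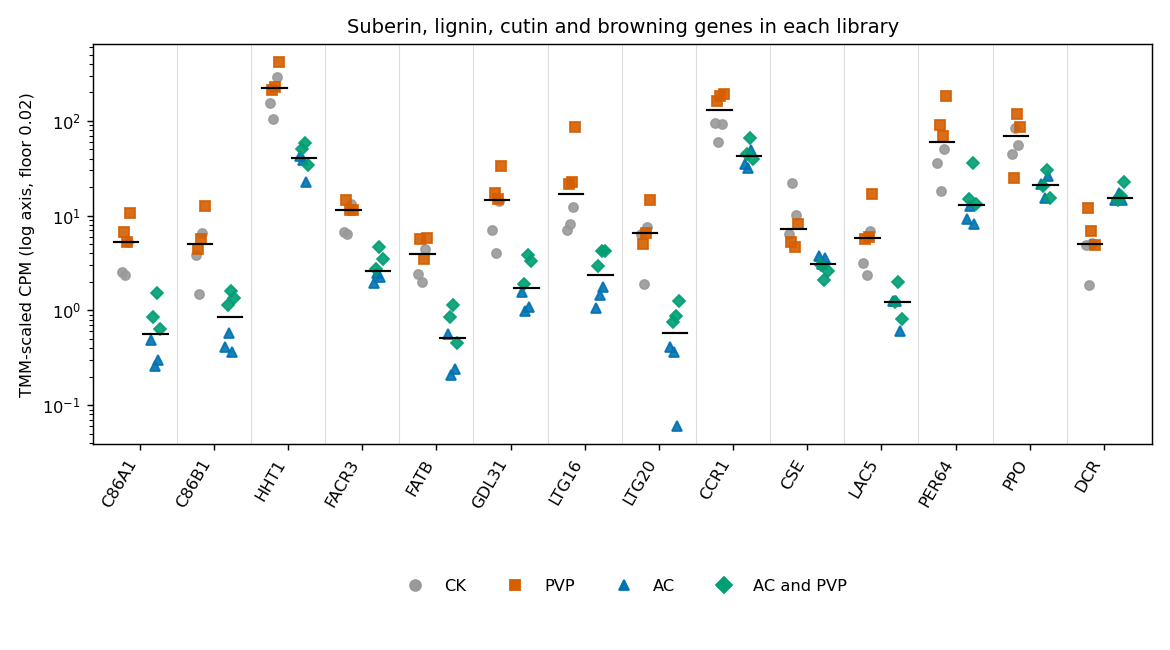
CPM (log axis) of suberin, cutin, wax, lignin and browning unigenes in each of the 12 libraries, without AC on the left and with AC on the right of each column, with the median as a bar. All shown are lower with AC apart from DCR, which had a median of 5 CPM without AC and 15.3 CPM with AC.

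Polyphenol oxidase (PPO, TRINITY_DN5115_c0_g1), the enzyme most directly tied to browning, had 25 to 119 CPM (median 69.8) in the libraries without AC and 15.2 to 30.3 CPM (median 21) in those with AC. Only PVP 1, at 25 CPM, lay within the range of the libraries with AC. The change was -1.67 ± 0.32 (SE, adjusted p = 0.022), with -1.54 in AC vs CK against -1.80 where PVP was present. It was a DEG in 6 of the 12 fits that left out 1 library, with an adjusted p of 0.075 without AC and PVP 3. Of 12 CYP71 clan cytochromes P450 1 fell and 4 had a positive log2 fold change, and of 9 beta-glucosidases 1 fell, shares below the 14.7% of all named unigenes. The cytochrome P450 C7A15 (TRINITY_DN31378_c0_g1) had 1.53 to 10.2 CPM (median 3.64) without AC and 0.361 to 1.21 CPM (median 0.634) with AC, a change of -2.87 ± 0.39 (SE, adjusted p = 0.0022), and the beta-glucosidase BGL12 (TRINITY_DN488_c0_g1), of a family that frees aglycones from stored glucosides, had 18.5 to 65.6 CPM (median 39.3) without AC and 3.91 to 16.9 CPM (median 8.65) with AC, a change of -2.04 ± 0.34 (SE, adjusted p = 0.0095). Conversely, the glutathione transferase GSTFD (TRINITY_DN2445_c0_g1) rose, with 3.46 to 11.7 CPM (median 6.9) without AC and 13.7 to 90.1 CPM (median 32.7) with AC, a change of 2.40 ± 0.43 (SE, adjusted p = 0.015).

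The 4 unigenes named NLTPC, of the small secreted proteins that carry lipids between membranes and to the cuticle, had the largest rises of all named DEGs without overlap. The first, TRINITY_DN35416_c0_g1, had 0 to 0.125 CPM (median 0.0419) without AC and 4.44 to 219 CPM (median 39.3) with AC, a change of 10.35 ± 0.93 (SE, adjusted p = 2.4e-06). By AC group, it was 4.44, 58.7 and 95.8 CPM in AC and 19.9, 6.58 and 219 CPM in AC and PVP, so replicates of one group spread widely. The others, TRINITY_DN27316_c1_g1, TRINITY_DN1059_c0_g1 and TRINITY_DN9532_c0_g1, changed by 9.39 ± 1.12, 9.26 ± 1.11 and 8.94 ± 0.99. All stayed DEGs whichever library was left out. Across the 6 libraries with AC the profiles of the 4 ran together, with Pearson correlations of 0.991 to 0.999 on the log2(CPM + 1) scale, a description over libraries that share depth and treatment. They may be near-identical copies or pieces of 1 transcript, between which reads could be split, and so cannot be counted as 4 separate genes.

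Of all 33 non-specific lipid transfer proteins, 9 rose, 4 of which are the NLTPC unigenes, 0 fell and 28 had a positive log2 fold change, with a median of 1.87. With the NLTPC unigenes counted as 1, 6 of 30 rose, against 11.8% of all named unigenes, and without AC and PVP 3 only 1 member other than NLTPC was higher. The 0 rests on edgeR, where 29 of the 33 had an unadjusted p under 0.05 in either direction, and DESeq2 called 22 higher and 1 lower. Summed over the list, libraries without AC had 2311 to 20499 CPM (median 11844) and libraries with AC 12028 to 37515 CPM (median 25852), and both sides overlapped. By library size alone, without the trimmed mean, 12 members were higher, and the count ran from 5 without AC and PVP 3 to 12 without CK 2 when 1 library was left out.

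**Figure D4:**
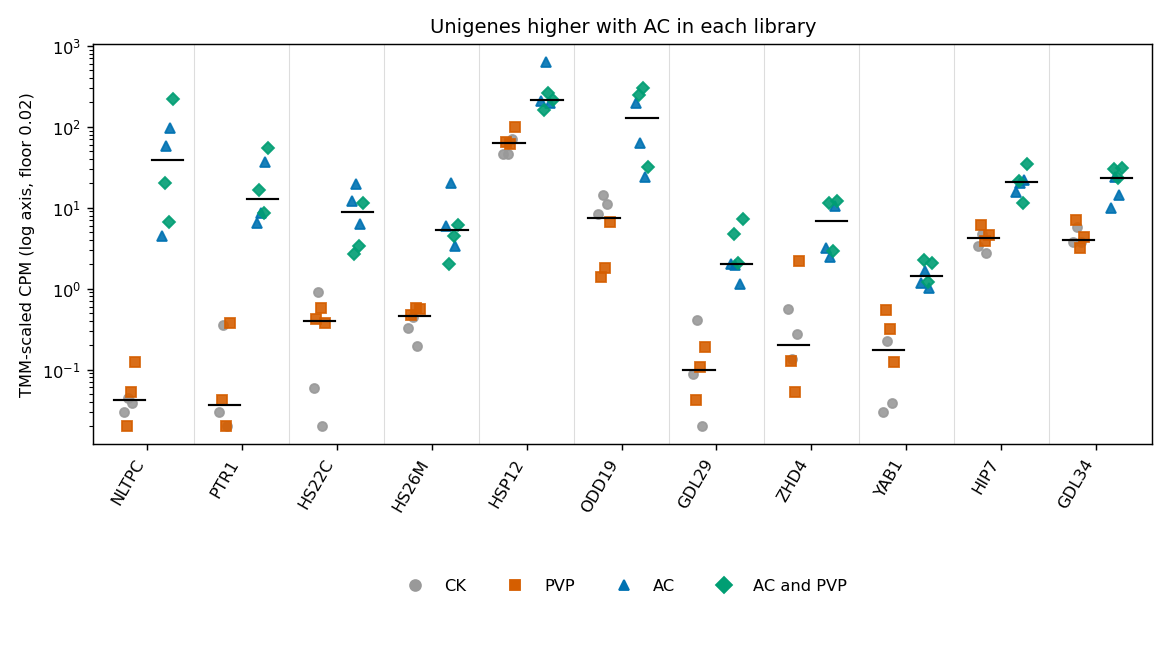
CPM (log axis, values under 0.02 drawn at 0.02) of 11 unigenes that rose with AC, in each of the 12 libraries, without AC on the left and with AC on the right of each column, with the median as a bar. In each column, the lowest library with AC lies above the highest without it, for NLTPC (TRINITY_DN35416_c0_g1) at 4.44 against 0.125 CPM.

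Small heat shock proteins, chaperones that bind unfolding proteins under stress and late in seed development, rose with AC in 5 of 8 members, and all 8 had a positive log2 fold change (median 3.73). HS26M (TRINITY_DN3210_c0_g1) had 0.194 to 0.584 CPM (median 0.457) without AC and 1.99 to 20.5 CPM (median 5.26) with AC, a change of 3.95 ± 0.51 (SE, adjusted p = 0.0015). Next, HS22C (TRINITY_DN5962_c0_g1) had 0 to 0.897 CPM (median 0.399) without AC and 2.66 to 19.7 CPM (median 8.9) with AC, a change of 4.52 ± 0.66 (SE, adjusted p = 0.004). For both, all libraries with AC were above all without. HSP12 (TRINITY_DN683_c0_g2) had 45.9 to 98.2 CPM (median 63.1) without AC and 159 to 629.9 CPM (median 213) with AC, again without overlap, a change of 2.09 ± 0.34 (SE, adjusted p = 0.0089). HSP41 (TRINITY_DN1728_c0_g1) changed by 4.13 ± 0.65 and overlapped through CK 2 at 8.97 CPM, and HSP11 (TRINITY_DN6787_c0_g1) changed by 3.22 ± 0.60 at levels of at most 2.08 CPM. HSP12 and HSP11 were named after their values were seen.

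Transcripts of seed reserves were high in the same libraries as the small heat shock proteins. CK 2 stood apart among the libraries without AC, with 32024 CPM for the 8 seed storage proteins, 14727 CPM for the 14 oil body proteins and 14866 CPM for the 8 late embryogenesis proteins, where the other 5 had at most 5929.6, 769 and 268 CPM. With AC the sums were 1847 to 17365 CPM (median 6949), 781 to 13072 CPM (median 2902) and 239.7 to 14499.7 CPM (median 2519). In the fit of all 12 libraries 0 members of the 3 lists were DEGs by edgeR, with 2, 8 and 2 members at an unadjusted p under 0.05, and DESeq2 called 1 storage protein higher, 1 oil body protein higher and 1 lower, and 0 late embryogenesis proteins. Without CK 2, 6 of 8 storage proteins, 11 of 14 oil body proteins and 5 of 8 late embryogenesis proteins were higher with AC, and so were both enzymes of the glyoxylate cycle, which turns seed oil into sugar. Without CK 2, 7 of the 8 small heat shock proteins were higher. Among libraries with AC, AC 2 had the highest sum of the small heat shock list (3462 CPM) and of all 3 reserve lists, and whether retained embryo reserves had a part in the heat shock result was not tested.

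**Figure D5:**
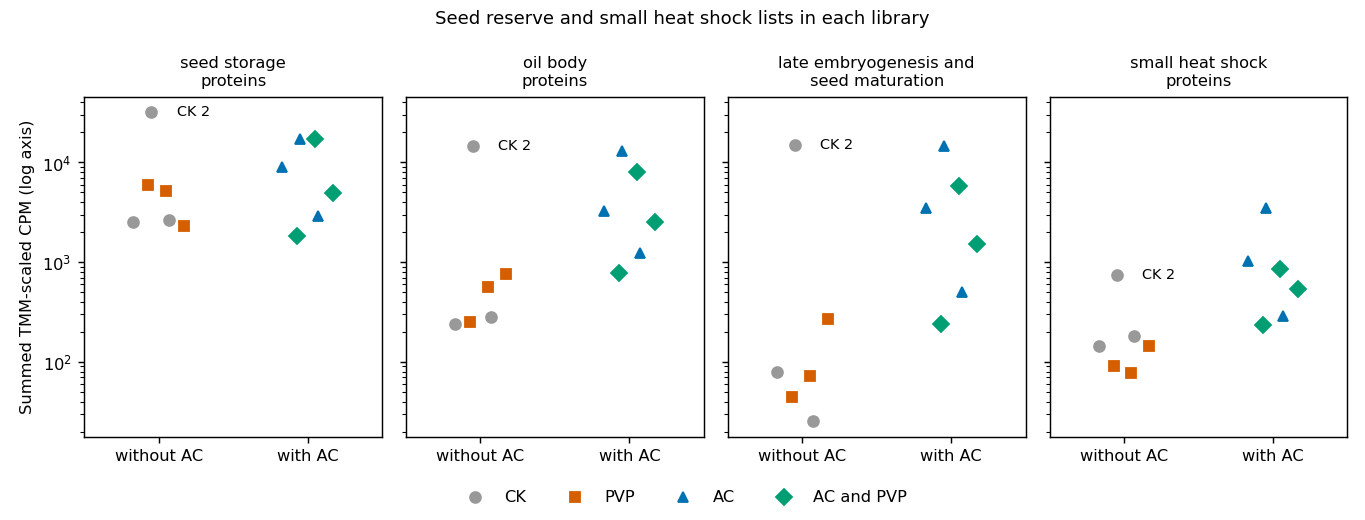
Summed CPM (log axis) of the seed storage, oil body, late embryogenesis and small heat shock lists in each of the 12 libraries, by presence of AC. CK 2 lies above the other 5 libraries without AC in all 4 panels, at 14727 CPM for oil body proteins.

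Genes listed as regulators of root and of leaf development went opposite ways. Of 6 root development regulators, 4 fell and 1 rose, with a median log2 fold change of -1.68, and the summed level was 23.8 to 52.4 CPM (median 31.7) without AC and 14.1 to 20.1 CPM (median 15.8) with AC, without overlap, although only 1 member was lower without AC and PVP 3. MYB93 (TRINITY_DN9537_c0_g2), a root endodermal factor that restrains lateral roots in Arabidopsis, had 0.538 to 2.6 CPM (median 1.48) without AC and 0 to 0.451 CPM (median 0.113) with AC. These did not overlap, and the change was -3.16 ± 0.54 (SE, adjusted p = 0.0082). RHL1 (TRINITY_DN3302_c0_g1), named for a root hairless mutant, had 8.55 to 18.3 CPM (median 13.4) without AC and 3.47 to 7.58 CPM (median 5.03) with AC, also without overlap, a change of -1.35 ± 0.24 (SE, adjusted p = 0.015) that missed the threshold without AC and PVP 3 (adjusted p = 0.058).

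Weaker calls in the root list were PLET2 (TRINITY_DN4352_c1_g1), a root stem cell factor, with -2.56 ± 0.56, and MYB36 (TRINITY_DN3020_c0_g1), the Arabidopsis switch for the Casparian strip, with -1.27 ± 0.27. They were DEGs in 3 of the 12 and 2 of the 12 fits that left out 1 library, with adjusted p up to 0.13 without CK 1 and an adjusted p of 0.13 without AC 2, and both were named after their values were seen. MIZ1 (TRINITY_DN3645_c0_g1), needed for root bending towards water in Arabidopsis, rose by 1.41 ± 0.29 (SE, adjusted p = 0.037), with an adjusted p of 0.092 without AC 2.

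Of 4 leaf polarity regulators 3 rose, with a median log2 fold change of 2.14 and sums of 5.75 to 19.9 CPM (median 10.4) without AC and 22.5 to 69.7 CPM (median 39.6) with AC that did not overlap. YAB1 (TRINITY_DN76361_c0_g1), a YABBY factor of the lower leaf side, had 0.0298 to 0.55 CPM (median 0.175) without AC and 1.02 to 2.28 CPM (median 1.44) with AC and no overlap, a change of 2.97 ± 0.46 (SE, adjusted p = 0.0045). AS1 (TRINITY_DN3372_c0_g1), which keeps meristem genes off in leaves, had 1.4 to 5.38 CPM (median 2.06) without AC and 4.73 to 18.8 CPM (median 7.95) with AC, a change of 1.90 ± 0.28 (SE, adjusted p = 0.0041), overlapping through PVP 1 at 5.38 CPM. YAB5 (TRINITY_DN3944_c0_g1) changed by 1.65 ± 0.33 (SE, adjusted p = 0.029), with an adjusted p of 0.08 without AC 3. The 19 genes of light harvesting and carbon fixation did not share this direction in the joint fit: 9 had a positive and 10 a negative log2 fold change. Their sums were 849.8 to 5619 CPM (median 2277) without AC and 1852 to 6688 CPM (median 4397) with AC. The list median was 1.09 in AC vs CK and -0.16 in AC and PVP vs PVP. By group, the sums were 849.8 to 1251 CPM in CK and 1852 to 4726 CPM in AC, without overlap. They were 3304 to 5619 CPM in PVP and 4069 to 6688 CPM in AC and PVP. Of the list, 2 rose. These were PSBM (TRINITY_DN3846_c0_g2) of photosystem II, which changed by 1.73 ± 0.37 (SE, adjusted p = 0.044) with an adjusted p of 0.1 without CK 3, and a minor Rubisco small subunit unigene, RBS1 (TRINITY_DN622_c0_g2). RBS1 had 0 to 11.2 CPM (median 0.794) with AC and 0 to 0.0595 CPM without, so the sides overlapped. It was highest in AC and PVP 3 (11.2 CPM) and AC 3 (5.78 CPM), and its adjusted p was 0.094 without CK 1. The share of DEGs in this photosynthesis list was below that of all named unigenes. In the libraries with AC, most DEGs of the suberin, cutin and wax list and of the lignin lists were lower. The summed root regulators were also lower there and the leaf polarity regulators higher. The part that rooting and the mix of organs had in these results cannot be told apart from that of AC.

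Among 46 other transcription factors 7 rose and 10 fell, beside 11.8% higher and 14.7% lower among all named unigenes. When AC 2 or AC and PVP 3 was left out, 1 was higher and 4 were lower. MYB86 (TRINITY_DN4483_c0_g1) had 2 to 7.65 CPM (median 3.66) without AC and 0.542 to 1.19 CPM (median 0.878) with AC, a change of -2.27 ± 0.31 (SE, adjusted p = 0.0027). WRK42 (TRINITY_DN8145_c0_g1), a WRKY factor tied to phosphate supply in Arabidopsis, had 0.889 to 3.54 CPM (median 2.3) without AC and 0.38 to 0.774 CPM (median 0.469) with AC, a change of -2.04 ± 0.32 (SE, adjusted p = 0.0064). WRI1 (TRINITY_DN57794_c0_g1), which switches on fatty acid synthesis in seeds of Arabidopsis, had 0.699 to 1.25 CPM (median 0.806) without AC and 0 to 0.336 CPM (median 0.0912) with AC, a change of -2.90 ± 0.51 (SE, adjusted p = 0.008). In these 3, every library with AC was below every library without. Upwards, the zinc finger homeodomain factor ZHD4 (TRINITY_DN90140_c0_g1) had 0.0531 to 2.19 CPM (median 0.203) without AC and 2.45 to 12 CPM (median 6.85) with AC, a change of 3.74 ± 0.65 (SE, adjusted p = 0.014), and the AINTEGUMENTA-like factor AIL1 (TRINITY_DN11645_c0_g1, named after its values were seen) had 0.194 to 4.44 CPM (median 0.934) without AC and 5.84 to 15.4 CPM (median 9.56) with AC, a change of 2.67 ± 0.55 (SE, adjusted p = 0.032) that was lost without PVP 3 (adjusted p = 0.091). The single DEG among 7 hormone genes was GAOX2 (TRINITY_DN65388_c0_g1), a gibberellin oxidase, with -2.83 ± 0.59 (SE, adjusted p = 0.028) and an adjusted p of 0.1 without AC 2. It had 0.0423 to 5.16 CPM (median 0.652) without AC and 0 to 0.361 CPM (median 0.152) with AC, so the sides overlapped. CK 2 was the highest library, and GAOX2 was not a DEG without it. The call held in 4 of the 12 fits that left out 1 library.

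Transporters changed in both directions. PTR1 (TRINITY_DN331_c1_g1), a carrier of short peptides in Arabidopsis, rose, with 0 to 0.375 CPM (median 0.036) without AC and 6.52 to 54.6 CPM (median 12.7) with AC, a change of 7.39 ± 0.83 (SE, adjusted p = 0.00041), with 7.14 in AC vs CK against 7.67 in AC and PVP vs PVP. PTR18 (TRINITY_DN10149_c0_g1) of the same family had 32.6 to 136 CPM (median 66) without AC and 9.09 to 24.4 CPM (median 16.7) with AC and no overlap, a change of -2.20 ± 0.39 (SE, adjusted p = 0.015), with an adjusted p of 0.053 without AC 2. The tonoplast sugar carrier ERDL6 (TRINITY_DN91_c0_g1) fell, with 23.9 to 219.9 CPM (median 74.4) without AC and 9.09 to 25.4 CPM (median 17) with AC, a change of -2.20 ± 0.32 (SE, adjusted p = 0.0041). SWT12 (TRINITY_DN12618_c0_g1), of the SWEET sugar exporters, had 0.188 to 4.11 CPM (median 0.532) without AC and 2.55 to 14.8 CPM (median 10.2) with AC, a change of 3.35 ± 0.65 (SE, adjusted p = 0.024), with an adjusted p of 0.074 without CK 3. The amino acid export regulator GDU4 (TRINITY_DN9898_c0_g1) rose by 2.08 ± 0.34 without overlap. The unigenes for heavy metal-associated isoprenylated proteins, which bind metal ions, moved apart: HIP7 (TRINITY_DN3674_c0_g1) rose, with 2.72 to 6.1 CPM (median 4.25) without AC and 11.5 to 35.1 CPM (median 20.7) with AC, a change of 2.32 ± 0.26 (SE, adjusted p = 0.00079), and HIP4 (TRINITY_DN2940_c0_g1) fell, with 1.79 to 11.1 CPM (median 4.49) without AC and 0.26 to 0.978 CPM (median 0.553) with AC, a change of -3.04 ± 0.40 (SE, adjusted p = 0.0018). Neither overlapped between the sides. VITH4 (TRINITY_DN12246_c0_g1), a homolog of vacuolar iron transporters, rose by 3.21 ± 0.58 (SE, adjusted p = 0.0084), at 0.0602 to 1.07 CPM (median 0.478) with AC.

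Cell wall remodelling genes gave 2 higher and 2 lower DEGs of 18, a share close to that of all named unigenes. XTH23 (TRINITY_DN117_c0_g1), a xyloglucan transglucosylase, had 11.3 to 25.2 CPM (median 20.6) without AC and 5.05 to 8.86 CPM (median 6.74) with AC, without overlap, and changed by -1.53 ± 0.23 (SE, adjusted p = 0.0042). The endoglucanase GUN12 (TRINITY_DN8534_c0_g1) changed by -2.07 ± 0.31 (SE, adjusted p = 0.0048). Higher were PLY4 (TRINITY_DN42295_c0_g1), a pectate lyase, with 3.28 ± 0.60 (SE, adjusted p = 0.01) at no more than 2.04 CPM, and PMEI7 (TRINITY_DN14666_c0_g1, named after its values were seen), an inhibitor of pectin methylesterase, with 1.13 to 6.75 CPM (median 3.45) without AC and 7.74 to 40.1 CPM (median 11.9) with AC, a change of 2.14 ± 0.43 (SE, adjusted p = 0.03) that was lost without CK 3 (adjusted p = 0.076). Outside the lists, ODD19 (TRINITY_DN3466_c0_g1), a 2-oxoglutarate-dependent dioxygenase, rose, with 1.4 to 14.3 CPM (median 7.49) without AC and 23.7 to 306 CPM (median 130.3) with AC, a change of 4.46 ± 0.75 (SE, adjusted p = 0.01).

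Several groups gave few or 0 DEGs. Of 13 metallothioneins, small metal-binding proteins, 11 had a positive log2 fold change and the list median was 2.17, yet 0 rose by edgeR with 8 at an unadjusted p under 0.05, where DESeq2 called 7 higher. Without CK 2, 5 were higher. The 1 that fell, MT2 TRINITY_DN29305_c0_g2, was at 166, 198 and 113 CPM in CK 1, CK 2 and PVP 3 and at most 0.797 CPM in the other 9 libraries. Its change of -8.35 ± 1.43 (SE, adjusted p = 0.0079) thus rested on 3 of the 6 libraries without AC, and its adjusted p was 0.15 without PVP 3. All 7 fermentation enzymes had a positive log2 fold change with a median of 1.13, and 0 were DEGs by edgeR or DESeq2 (5 at an unadjusted p under 0.05). Of 21 transposon-related unigenes 4 fell, among them POLX (TRINITY_DN1447_c0_g1), with 12 to 126 CPM (median 15.9) without AC and 2.59 to 10.6 CPM (median 5.95) with AC, a change of -2.42 ± 0.51 (SE, adjusted p = 0.039) with an adjusted p of 0.13 without AC 2, while 14 had a positive log2 fold change.

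Unnamed unigenes made up 194 of the 398 DEGs. The smallest adjusted p among them was that of TRINITY_DN5378_c0_g1, which had 0.718 to 3.18 CPM (median 1.36) without AC and 8.44 to 19.7 CPM (median 10.3) with AC, a change of 3.03 ± 0.25 (SE, adjusted p = 4.3e-05), and next came TRINITY_DN28_c0_g1 with 5.50 ± 0.63. Lower, TRINITY_DN3158_c0_g1 changed by -2.92 ± 0.33 and TRINITY_DN3676_c0_g3 by -3.55 ± 0.44, the second with 24.2 to 483 CPM (median 88.6) without AC and 3.31 to 23.1 CPM (median 10.4) with AC. All 4 were DEGs whichever library was left out. Of the 23 unigenes that the study names by identifier, 6 were DEGs of the AC effect. Besides LTG15 and the peroxidases PER11, PER64 and PER12, these were TRINITY_DN10_c0_g1, which changed by 1.83 ± 0.33 (SE, adjusted p = 0.017), and TRINITY_DN1083_c0_g1, which changed by -1.43 ± 0.28 (SE, adjusted p = 0.027). Without AC and PVP 3 their adjusted p was 0.055 and 0.1. The study describes these peroxidases as upregulated in its comparisons of media with and without AC, whereas PER11, PER64 and PER12 were lower with AC here. Why the directions differ was not tested.

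Whether AC acted differently with and without PVP was tested by the product of both agents. One unigene, 0.00172% of those tested, passed, with 4351 at an unadjusted p under 0.05, and DESeq2 called 106. The unnamed TRINITY_DN14585_c0_g1 had 90.8, 207 and 205 CPM in CK, 104, 118 and 119.6 CPM in AC, 0.296, 0.319 and 0.375 CPM in PVP, and 8.21, 66 and 58.3 CPM in AC and PVP. The PVP libraries were thus far below all others. The interaction on the log2 scale was 7.61 ± 0.85 (adjusted p = 0.0082). For the other unigenes named here, a difference of the AC effect between PVP levels did not pass the test, which does not show that the effects were equal.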

How the data were processed

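The authors trimmed reads with TrimGalore, assembled unigenes de novo with Trinity, mapped reads with Bowtie and deposited 1 table of RSEM estimated counts per unigene for each library, not normalized. Values that are not whole made up 2.39% to 3.97% of each table, and estimated counts share reads between similar unigenes. Here the estimated counts were rounded, and unigenes with a deposited count above 0 in at least 3 libraries were kept (58247, with 72709 removed). They were fitted in edgeR (version 4.0.16, R version 4.3.3) with TMM scaling factors of 0.75 to 1.46 and terms for AC and PVP, by the quasi-likelihood test. A fit of the 4 group means gave AC vs CK, AC and PVP vs PVP and the interaction. Thresholds, taken from the study's methods, were an adjusted p of 0.05 and a log2 fold change of 1. The study used DESeq2 on raw counts, which was an alternative here (version 1.42.0). The fit of the AC effect was tested on simulated data that held no PVP effect, and the fit of the 4 group means was not tested so. Alternatives were other tools, scalings and filters, no PVP term, a replicate block and leaving out each library.

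The libraries are labelled as replicates 1 to 3 of each group, and the labels name no batch. Names came from the study's supplementary tables for 769 unigenes. Comparison columns of those tables were not used. Members and the 35 gene lists were chosen with earlier results of these data known. A rule drew 134 unigenes for naming. These were the 10 largest changes per direction among named DEGs without overlap and a mean log2 CPM over 0, up to 3 members per list by adjusted p whether DEG or not, PPO, unigenes the study names by identifier, and 2 unnamed DEGs per direction. For the AC effect the text gives only DEGs. They come from this set or were added after their values were seen, and the latter are marked so where they appear. Members of the set that missed the thresholds are not given one by one. Sequences and gene lengths were not used here, so levels are not compared between genes. Totals of 11071628 to 25069014 estimated counts set the precision of low levels.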

Additional observations from a re-analysis of the deposited data

Results flagged for a closer look

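In 256 groups of 6 libraries, with or without AC, the highest or lowest value was compared with its nearest neighbour by Dixon's ratio, for totals, for unigenes above 1 CPM, for list sums and for the unigenes named above, the last 2 on the log2(CPM + 1) scale. A library stood apart in 20 of them. Chance alone gives about 1 in 20 groups, or 12.8 here.

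AC and PVP 3 had the lowest total among libraries with AC, at 11071628. CK 2 stood above the other libraries without AC in the sums of seed storage proteins (32024 CPM), oil body proteins (14727 CPM), late embryogenesis proteins (14866 CPM) and small heat shock proteins (748 CPM), and CK 3 in the sum of the other transcription factors (387 CPM).

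PVP 3 was the highest library without AC for the NLTPC unigenes TRINITY_DN9532_c0_g1 (0.438 CPM), TRINITY_DN27316_c1_g1 (1.5 CPM) and TRINITY_DN1059_c0_g1 (3.5 CPM), for LTG14 (1.63 CPM) and for ZHD4 (2.19 CPM). Of libraries with AC, AC 2 was the highest for HSP12 (630 CPM), AC and PVP 2 the lowest for SWT12 (2.55 CPM) and AC 1 the lowest for MIZ1 (3.34 CPM). PVP 1 was the highest without AC for SWT12 (4.11 CPM) and for the peptide transporter family member PTR21 (0.339 CPM), for which AC and PVP 3 was the highest with AC (1.35 CPM). The defensin DEF2 was highest in AC 3 with AC (1.63 CPM) and above 0 without AC only in CK 2 (0.0449 CPM). CK 1 was the only library without AC in which RBS1 was above 0, at 0.0595 CPM.

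The AC effect differed between the PVP levels by 7.61 on the log2 scale for TRINITY_DN14585_c0_g1, by the test of the interaction.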

How the results depend on the processing

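The 91 DEGs given one by one in the text, a part of all 398, kept their direction under all alternatives that gave a value, and between 64 (without AC 2) and 91 kept their call. The cause of the changes in counts was not tested. DESeq2 gave 879 DEGs of the AC effect (408 higher, 471 lower), 384 of them shared with the 398, and 823 in AC vs CK, 328 in AC and PVP vs PVP and 106 for the interaction. Without a filter the counts were 2239 (1043 higher, 1196 lower), 1882, 1912 and 1382. Legacy dispersion gave 77 in AC and PVP vs PVP and 11 for the interaction, robust estimation 2, library sizes alone 5 and the filterByExpr filter 5 and 0 (2270 at an unadjusted p under 0.05).

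Same-numbered libraries deviated together with r over 0.1 in 6 of 18 pairs (-0.14 to 0.23), with a median of 0.047 against -0.041 for differently numbered pairs. Pairs of replicate 1 were all positive (0.054 to 0.21). This does not settle whether the numbers pair the libraries, and the main fit treated them as unpaired. With a replicate block the AC effect had 646 DEGs (273 higher, 373 lower), AC vs CK 723, AC and PVP vs PVP 437 and the interaction 105.

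Leaving out 1 library at a time gave 181 to 673 DEGs of the AC effect (80 to 332 higher, 98 to 341 lower), 0 to 422 in AC vs CK, 5 to 184 in AC and PVP vs PVP and 0 to 10 for the interaction. The 0 for AC vs CK came without CK 3, where edgeR had 4447 at an unadjusted p under 0.05. Without CK 2 and AC and PVP 3 together, chosen after seeing the data, the counts were 368 (198 higher, 170 lower), 346 and 9, the last 2 for AC vs CK and the interaction. The difference in expressed unigenes ranged from -696 to 48.7, its sign turning without CK 1 (48.7, exact permutation p = 0.935). All counts rest on 3 libraries a group, of which AC and PVP 3 was the shallowest.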
